A study of Mus musculus with 10 samples.

Results

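Cholesterol and fatty acid synthesis was examined through 29 genes of the pathway. They were chosen by gene symbol from what each is known to encode, with earlier results of these data known. They comprise 4 genes that control the pathway, 1 sterol carrier, 18 enzymes of cholesterol synthesis (7 of the mevalonate steps, 3 of the squalene steps and 8 of the later steps) and 6 genes of fatty acid synthesis. All 29 were found among the 24421 gene symbols in the files, and all 29 passed the filter on low counts that left 18727 genes to test, with 38 to 8591 reads for a member in a library.

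RNA seq had been carried out on microglia prepared from mouse cortex, in 3 libraries from WT mice, 4 from APP/PS1 mice and 3 from N-AS-treated APP/PS1 mice (N-AS is N-acetyl sphingosine). The APP/PS1 mice over-express human hAPP695swe and presenilin-1 with the M146V mutation, and the promoters of these transgenes are not given in the sources used here. N-AS was given to APP/PS1 mice as 30 mg/kg daily under the skin for 8 weeks from the age of 7 months, all mice were analysed at 9 months, and 2 mice were pooled in each library. The study names vehicle as what the APP/PS1 mice compared with them received, the labels name no vehicle, and what the WT mice received is not given in the sources used here. Cells were released with papain and separated on a density gradient without a sort.

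Animal cells build cholesterol from acetyl-CoA through mevalonate, the isoprenoids and squalene, and they build fatty acids from the same precursor through malonyl-CoA. Low membrane sterol lets SCAP carry the SREBP precursors out of the endoplasmic reticulum to be cut, and the released factors switch on genes of both branches, while INSIG proteins hold the complex back when sterol is plentiful. In the brain, where cholesterol is made locally, astrocytes and myelinating oligodendrocytes are known as main producers, and microglia take up and export much of the lipid they handle.

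The libraries held 8805804 to 19432075 counts, and the replicates are pools of mice whose independence the labels do not describe further, so the p-values measure the spread between these libraries. The summed level of 14 microglial markers was 813 to 1216 CPM (counts scaled to library size and composition) in WT, 2636 to 3405 CPM in APP/PS1 and 1635 to 2146 CPM in APP/PS1+N-AS libraries. None of the 14 was at 0 in a library, but 10 oligodendrocyte markers summed to 1980 to 7156 CPM and 8 neuronal markers to 1577 to 5079 CPM, so the fractions held RNA of other cells beside that of microglia. Fewer cells of a type and less RNA per cell cannot be told apart in such libraries. The methods state that only male mice were used, whereas 6 of the 10 libraries, none of them WT, held 5253 to 11188 reads of Xist against 29 to 37 in the other 4. Sex-linked reads and group are thus confounded, and their part in the results cannot be told apart. The library labelled WT 3 stood apart from WT 1 and WT 2, and the values it moves most are given with and without it. It is also the only WT library among those numbered 7 to 10 in the labels.

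No member passed the adjusted threshold in any of the 3 comparisons. In the quasi-likelihood test of edgeR, with p-values adjusted by Benjamini-Hochberg over all genes, 0 of 29 members had an adjusted p under 0.05 in APP/PS1 against WT, where 3.47% of all tested genes did. The count was also 0 of 29 in APP/PS1+N-AS against APP/PS1, where 0% of all genes passed, and 0 of 29 in APP/PS1+N-AS against WT, where 0.187% passed. DESeq2 called 1 member, Scd2, in APP/PS1 against WT and none in the others. At an unadjusted p under 0.05 the counts were 4 of 29 (17.2% of all genes), 0 of 29 (8.83%) and 1 of 29 (6.73%), none of them above the share among all genes. The median log2 fold change of the members was −0.17, 0.00 and −0.08 in these 3 comparisons, beside −0.07, −0.01 and −0.04 over all tested genes, and without WT 3 the first of these medians was 0.05. The 95% interval of a member's fold change reached a median of 0.40 to 0.44 log2 units to either side, and it lay within 1 log2 unit of 0 for 26, 28 and 27 of the 29 members. Changes beyond 2-fold were thus outside the interval of most members.

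**Figure D1:**
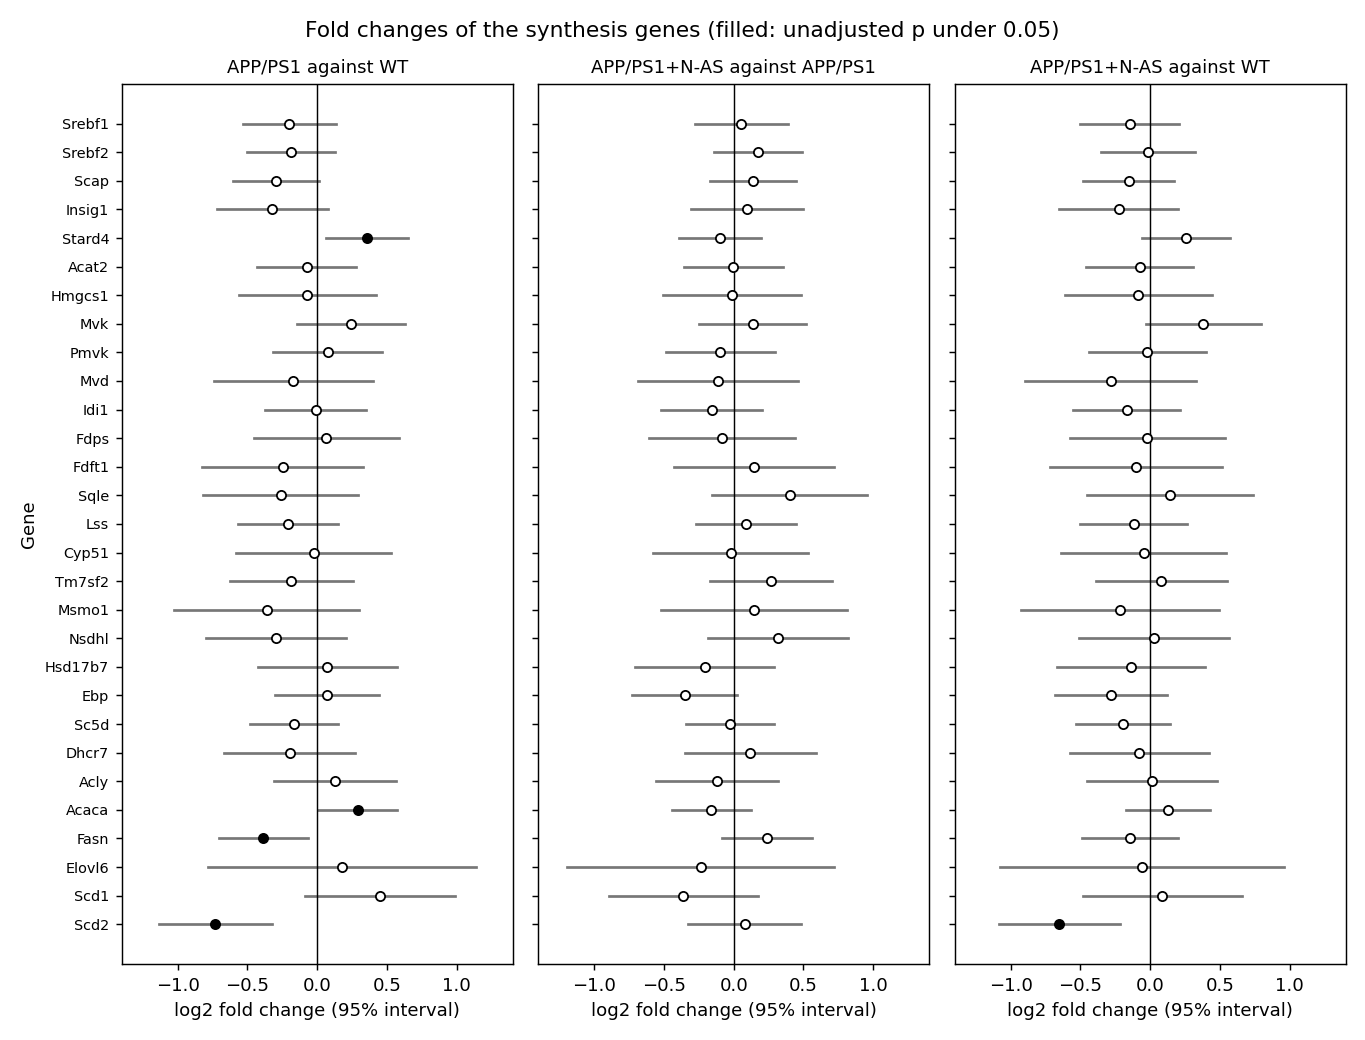
Log2 fold change of each of the 29 genes (points) with its 95% interval (lines) in the 3 comparisons, from one edgeR fit of all 10 libraries, with filled points for an unadjusted p under 0.05. Stard4, Acaca, Fasn and Scd2 are filled in APP/PS1 against WT and only Scd2 in APP/PS1+N-AS against WT, and in the comparison of the N-AS-injected with the other APP/PS1 mice no point is filled.

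Averaged over the 29 genes, the mean log2 CPM was 4.92 ± 0.17 (SD, n = 3) in WT, 4.85 ± 0.09 (n = 4) in APP/PS1 and 4.87 ± 0.10 (n = 3) in APP/PS1+N-AS libraries. The groups overlapped, with ranges of 4.80 to 5.12, 4.72 to 4.92 and 4.81 to 4.99, and no test was made on this average because the genes had been chosen with results of these data known. The 6 fatty acid genes averaged 7.06 ± 0.12, 7.03 ± 0.17 and 6.97 ± 0.08 log2 CPM, and the 18 cholesterol enzymes 4.08 ± 0.29, 4.02 ± 0.10 and 4.04 ± 0.17. The spread of the cholesterol enzymes among the WT libraries was thus wider than any difference between the groups. Without WT 3 the WT mean was 4.82 over the 29 genes and 3.92 over the cholesterol enzymes, below the APP/PS1 mean in both cases and not above it.

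Compared per kilobase of exon, the scale on which levels of different genes can be set side by side, Scd2 stood first of the 29 at 59.9 CPM per kb over all libraries and was higher than 96.9% of the genes with a known length. Idi1, which makes the activated isoprenoid unit, came next at 22.0 CPM per kb, followed by Acly, which makes cytosolic acetyl-CoA from citrate, and Scd1 at 19.2 CPM per kb. At the other end were Tm7sf2, a sterol reductase, at 1.09 CPM per kb and Dhcr7, which catalyses the last step to cholesterol, at 1.70 CPM per kb. In all, 17 of the 29 lay above the median of all genes with a known length, 4.19 CPM per kb.

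Among the control genes, Srebf2, which encodes the SREBP that acts mainly on cholesterol genes (chr15:82147181-82205379 on the plus strand, GRCm38), was at 92.3, 117 and 123 CPM in the WT libraries. It was at 108, 107, 89.2 and 85.2 CPM in APP/PS1 and at 110, 114 and 105 CPM in APP/PS1+N-AS libraries. The groups overlapped throughout, and the log2 fold changes were −0.19 ± 0.14 (SE) in APP/PS1 against WT (edgeR, adjusted p = 0.568) and 0.17 ± 0.14 in APP/PS1+N-AS against APP/PS1 (adjusted p = 0.767).

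Srebf1, which encodes the SREBP that acts mainly on fatty acid genes (chr11:60199089-60222581, minus strand), was at 50.2, 52.9 and 38.5 CPM in WT. It was at 39.8, 37.6, 48.8 and 38.0 CPM in APP/PS1 and at 38.5, 41.4 and 48.0 CPM in APP/PS1+N-AS libraries. WT 3 lay among the APP/PS1 libraries, and the log2 fold change of APP/PS1 against WT was −0.20 ± 0.15 (edgeR, adjusted p = 0.561). Without WT 3 it was −0.32 ± 0.14 (unadjusted p = 0.0446, adjusted p = 0.22).

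Insig1, which holds back SREBP processing and is itself a target of it (chr5:28071363-28078662, plus strand), was at 34.7, 42.0 and 53.4 CPM in WT. It was at 34.4, 35.5, 40.8 and 28.5 CPM in APP/PS1 and at 30.4, 38.0 and 43.3 CPM in APP/PS1+N-AS libraries. The groups overlapped, with a log2 fold change of −0.32 ± 0.18 in APP/PS1 against WT (edgeR, adjusted p = 0.41) and of 0.10 ± 0.18 in APP/PS1+N-AS against APP/PS1 (adjusted p = 0.91). Without WT 3 the first was −0.14 ± 0.18. Scap, the escort of the SREBP precursors, was at 37.7 to 41.2 CPM in WT, 25.8 to 37.7 CPM in APP/PS1 and 34.5 to 35.8 CPM in APP/PS1+N-AS libraries. WT did not overlap with either of the other groups for Scap, although the nearest WT and APP/PS1 libraries were almost level, and the log2 fold change of APP/PS1 against WT was −0.29 ± 0.14 (unadjusted p = 0.0575, adjusted p = 0.311).

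In the fit of all 10 libraries, all 4 control genes had a log2 fold change below 0 in APP/PS1 against WT and above 0 in APP/PS1+N-AS against APP/PS1. None of these changes passed the test, and the signs did not hold in every alternative. In the latter comparison Insig1 was at −0.00058 with the replicate block, and without APP/PS1+N-AS 3 Insig1 was at −0.017 and Srebf1 at −0.029. Within library numbers 1 to 6 the difference of mean log2 CPM for Scap was −0.049 in the latter comparison. For Srebf2 it was 0.050 in APP/PS1 against WT. Both comparisons use the same APP/PS1 libraries, so the opposite signs are not independent of each other.

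Stard4, a carrier that moves cholesterol between membranes and is an SREBP target, was at 13.7, 11.95 and 15.6 CPM in the WT libraries. It was at 16.3, 17.8, 19.3 and 17.0 CPM in APP/PS1 and at 17.5, 15.5 and 16.3 CPM in APP/PS1+N-AS libraries. Every APP/PS1 library lay above every WT library, and the injected group overlapped with both. The log2 fold change was 0.36 ± 0.13 in APP/PS1 against WT (edgeR, unadjusted p = 0.0227, adjusted p = 0.199), 0.26 ± 0.14 in APP/PS1+N-AS against WT (adjusted p = 0.783) and −0.10 ± 0.13 in APP/PS1+N-AS against APP/PS1 (adjusted p = 0.868).

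Counted in either direction, groups that did not overlap were about as common among the members as among all genes, or less so. In APP/PS1 against WT they were Scap and Scd2 (lower) and Stard4 and Acaca (higher), 4 of 29 beside 14.9% of all tested genes. In APP/PS1+N-AS against APP/PS1 they were Ebp (lower) and Fasn (higher), 2 of 29 beside 12.7%. In APP/PS1+N-AS against WT they were Scap, Ebp and Scd2, all lower, 3 of 29 beside 8.81%. By direction, 3.91% of all genes were lower without overlap in that comparison, and 0 of 29 members were higher beside 4.9%.

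Of the 18 cholesterol enzymes, 11 were highest in 1 WT library, WT 3. Hmgcs1, the synthase that forms HMG-CoA at the entry to the pathway (chr13:119690379-119708260, plus strand), was at 59.2 and 68.9 CPM in WT 1 and WT 2 but at 125.9 CPM in WT 3. It was at 80.5, 76.4, 88.7 and 77.1 CPM in APP/PS1 and at 73.7, 80.4 and 86.0 CPM in APP/PS1+N-AS libraries. The 7 libraries from APP/PS1 mice thus lay between the low and the high WT libraries, and the log2 fold change of APP/PS1 against WT was −0.07 ± 0.22 (edgeR, adjusted p = 0.909). Without WT 3 it was 0.34 ± 0.13 (unadjusted p = 0.0232, adjusted p = 0.156).

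Sqle, the epoxidase that opens the sterol part of the pathway (chr15:59315077-59331192, plus strand), was at 17.6, 17.6 and 34.7 CPM in WT. It was at 19.8, 17.9, 21.9 and 18.5 CPM in APP/PS1 and at 20.9, 22.9 and 33.8 CPM in APP/PS1+N-AS libraries. WT 3 and APP/PS1+N-AS 3 were the high libraries. The log2 fold change was −0.26 ± 0.25 in APP/PS1 against WT (edgeR, adjusted p = 0.663) and 0.40 ± 0.25 in APP/PS1+N-AS against APP/PS1 (unadjusted p = 0.139, adjusted p = 0.669). Without WT 3 the first turned to 0.16 ± 0.19 (adjusted p = 0.665), and the second was 0.40 ± 0.16 (unadjusted p = 0.0333, adjusted p = 0.38).

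WT 3 was the highest of the 10 libraries for 15 of the 29 members (51.7%), whereas it was the highest for 20.7% of all tested genes. Among the cholesterol enzymes this held for 11 of 18, namely Acat2, Hmgcs1, Mvd, Fdps, Fdft1, Sqle, Cyp51, Msmo1, Hsd17b7, Sc5d and Dhcr7, and outside them for Srebf2, Insig1, Acly and Fasn. Its level over the mean of WT 1 and WT 2 was 2.18-fold for Fdft1, the squalene synthase, 2.04-fold for Fdps, which makes farnesyl diphosphate, and 1.93-fold for Cyp51, the lanosterol demethylase. The same library was below that mean for Scd1 (0.555-fold), Elovl6 (0.632-fold), Scd2 (0.635-fold), Idi1 (0.745-fold) and Srebf1 (0.747-fold).

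WT 3 also differed from WT 1 and WT 2 in markers of other cells. Its 8 neuronal markers summed to 5079 CPM against 1577 and 1843 CPM, its 10 oligodendrocyte markers to 2472 CPM against 7024 and 7156 CPM, and its 6 endothelial markers to 388.9 CPM against 903 and 1109 CPM. No marker of these lists was at 0 in a library. The part of these differences in the levels of the cholesterol enzymes was not tested. Libraries 7 to 10, WT 3 among them, averaged more than libraries 1 to 6 for each of the 18 but Idi1, Lss and Tm7sf2. The means were 94.4 and 73.2 CPM for Hmgcs1 and 61.2 and 42.3 CPM for Fdft1. The part of library number in the levels of WT 3 was not tested either.

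Without WT 3, 12 of the 18 cholesterol enzymes had a log2 fold change above 0 in APP/PS1 against WT, compared with 5 of 18 with it, and 14 of 18 did in APP/PS1+N-AS against WT, compared with 4 of 18. The median over the 18 moved from −0.12 to 0.11 in the first of these comparisons and from −0.08 to 0.15 in the second. At an unadjusted p under 0.05, Hmgcs1 and Fdps were then higher in APP/PS1 than in WT, 2 of 18 beside 10.7% of all genes tested in that fit. Hmgcs1, Mvk (mevalonate kinase), Fdps, Fdft1 and Sqle were higher in APP/PS1+N-AS than in WT, 5 of 18 beside 5.28% of all genes. WT 3 was the highest library for 11 of the 18 enzymes, so leaving it out lowers their WT level by itself. It was highest for 20.7% of all tested genes, so the share of all genes is not a like background here. Without it WT is left with libraries numbered 1 and 2 only, while both APP/PS1 groups keep libraries numbered 7 to 10. Group and library number are thus partly confounded in that fit. None of these enzymes passed the adjusted threshold, with the lowest adjusted p at 0.0665 for Fdps. The direction of the cholesterol enzymes between the APP/PS1 mice and WT was therefore set by whether 1 WT library was included.

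**Figure D2:**
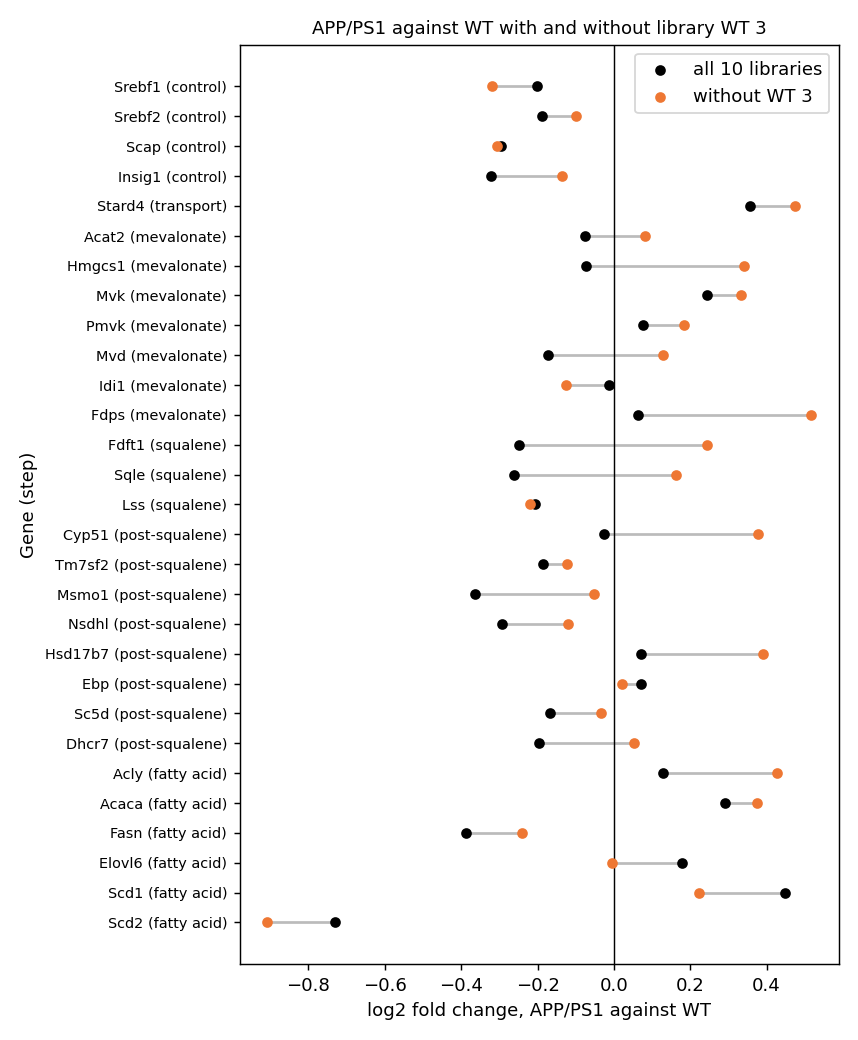
Log2 fold change of each of the 29 genes in APP/PS1 against WT from all 10 libraries (black) and from the 9 libraries left without WT 3 (orange). Of the 18 cholesterol enzymes, 5 lie above 0 with all libraries and 12 without WT 3, and Scd2 moves from −0.73 to −0.91.

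The other cholesterol enzymes varied in smaller ways. Ebp, a sterol isomerase, was at 7.09 to 9.03 CPM in WT, 7.02 to 9.57 CPM in APP/PS1 and 5.62 to 6.92 CPM in APP/PS1+N-AS libraries. All injected libraries lay below all others, and the log2 fold change of APP/PS1+N-AS against APP/PS1 was −0.35 ± 0.17 (edgeR, unadjusted p = 0.0627, adjusted p = 0.588). The library APP/PS1+N-AS 3 was the highest of the 10 for Mvk, Lss (lanosterol synthase) and Nsdhl (a sterol dehydrogenase), at 9.09, 25.0 and 11.4 CPM, and the lowest for Ebp. Ebp and Nsdhl lie on the X chromosome. That library held 29 reads of Xist, against 7024 and 8848 in the other injected libraries. The part of this difference in the levels of the X-linked members was not tested. Over the 18 enzymes the unadjusted p ran from 0.0627 to 0.992 in APP/PS1+N-AS against APP/PS1, and 8 log2 fold changes were above 0 and 10 below.

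Some of these counts may be shared with other genes, since the sources used here do not state whether counting used strand. Fdps shares 26.7% of its exon length with Gm43738 on the same strand. Fdft1 shares 774 exon bases with Ctsb, an abundant cathepsin gene on the opposite strand, which is 18.3% of its exon length. Tm7sf2 shares 12.1% of its exon length with Vps51 on the same strand. Of the 100-base stretches of Acat2, 28.9% also occur in Acat3, and of those of Idi1 and Acaca 15.8% and 23.6% occur in copies annotated as Gm13502 and Gm5182, so the levels of these genes are less certain.

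Stretches of promoter are shown for 3 members, Hmgcs1 at the entry to the cholesterol branch and Acly and Fasn of the fatty acid branch, all of which were highest in WT 3. Each is the 150 bases just before the RefSeq start in GRCm38.p6, written 5′ to 3′ on the strand of the gene, with capitals marking matches on either strand to any of 4 motifs: the core of a sterol response element (TCACNCCAC), the CCAAT box, the GC box (GGGCGG) and an E-box of the letters CACGTG. In Hmgcs1 (chr13:119690201-119690350, plus strand) the sterol element letters begin 137 bases before the start. Fasn (chr11:120824548-120824697, minus strand) and Acly (chr11:100528001-100528150, minus strand) hold no match to them in these windows.
Hmgcs1: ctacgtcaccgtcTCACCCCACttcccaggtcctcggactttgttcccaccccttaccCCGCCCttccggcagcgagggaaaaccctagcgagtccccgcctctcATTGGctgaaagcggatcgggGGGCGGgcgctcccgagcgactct
Fasn: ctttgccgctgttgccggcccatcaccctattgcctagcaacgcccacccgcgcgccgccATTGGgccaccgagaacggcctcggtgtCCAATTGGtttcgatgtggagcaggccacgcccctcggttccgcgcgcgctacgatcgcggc
Acly: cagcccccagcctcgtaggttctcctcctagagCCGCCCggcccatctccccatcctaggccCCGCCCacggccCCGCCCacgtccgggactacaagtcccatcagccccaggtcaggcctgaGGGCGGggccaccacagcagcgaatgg

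RefSeq windows were given for 23 of the 29 members, and those of Fdft1, Fdps, Scd1, Scd2, Sqle and Stard4 were not matched. In the 250 bases before the start, the letters CCAAT, bound by NF-Y, occurred in 18 of 23 members (78.3%) beside 37.5% of all genes with a window, and GGGCGG, bound by SP1, in 19 of 23 (82.6%) beside 35.4%. The letters TCACNCCAC occurred in 1 of 23, Hmgcs1, beside 1.22% of all genes, and CACGTG in 5 of 23 beside 6.86%. In the Fasn stretch 2 of the CCAAT matches share bases, one on each strand. These are matches of letters and not measured binding.

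Of the fatty acid genes, Scd2, the stearoyl-CoA desaturase that is the main form in brain (chr19:44293674-44306864, plus strand), had the lowest p of all members. It was at 486.5, 532 and 323 CPM in the WT libraries, at 247, 290, 267.5 and 273 CPM in APP/PS1 and at 255, 312 and 287.5 CPM in APP/PS1+N-AS libraries. Every WT library lay above all 7 libraries from APP/PS1 mice, and WT 3 was the lowest of the 3. The log2 fold change was −0.73 ± 0.18 in APP/PS1 against WT (edgeR, unadjusted p = 0.00216, adjusted p = 0.0578) and −0.65 ± 0.20 in APP/PS1+N-AS against WT (unadjusted p = 0.00722, adjusted p = 0.435). Between the N-AS-injected and the other APP/PS1 mice it was 0.08 ± 0.18 (adjusted p = 0.933), with a 95% interval of −0.33 to 0.48.

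The call for Scd2 lay near the threshold and moved to either side of it with the settings. Without WT 3 the log2 fold change of APP/PS1 against WT was −0.91 ± 0.14 with an adjusted p of 0.00689, and DESeq2 gave −0.72 with an adjusted p of 0.00174. Without WT 2 it was −0.58 with an adjusted p of 0.167. Within library numbers 1 to 6 the difference of mean log2 CPM was −0.93, and within numbers 7 to 10, where WT is 1 library, it was −0.26.

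Markers of other cells differed between the groups as well. The 10 oligodendrocyte markers, none at 0 in any library, summed to 7024, 7156 and 2472 CPM in WT, to 4777, 4235, 1980 and 2030 CPM in APP/PS1 and to 3919, 4023 and 2942 CPM in APP/PS1+N-AS libraries. The 2 WT libraries with the most Scd2 were also the 2 with the most of these markers. Elsewhere the orders differed, since APP/PS1 1 had the most of these markers in its group and the lowest Scd2 of the 10 libraries, and WT 3, with 2472 CPM of markers, had more Scd2 than every APP/PS1 library. The markers' median log2 fold change in APP/PS1 against WT was −1.34, with 3 of 10 lower at an adjusted p under 0.05. The microglial markers moved the other way, with 12 of 14 higher in APP/PS1 at an adjusted p under 0.05. In fits that took these levels as a covariate, a choice made with the data in view, the log2 fold change of Scd2 in APP/PS1 against WT was −0.38 (unadjusted p = 0.104) with the oligodendrocyte markers and 0.17 (unadjusted p = 0.809) with the microglial markers. The groups explained 51.1% of the first covariate and 93% of the second, so the effect of group and that of the covariate cannot be told apart.

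**Figure D3:**
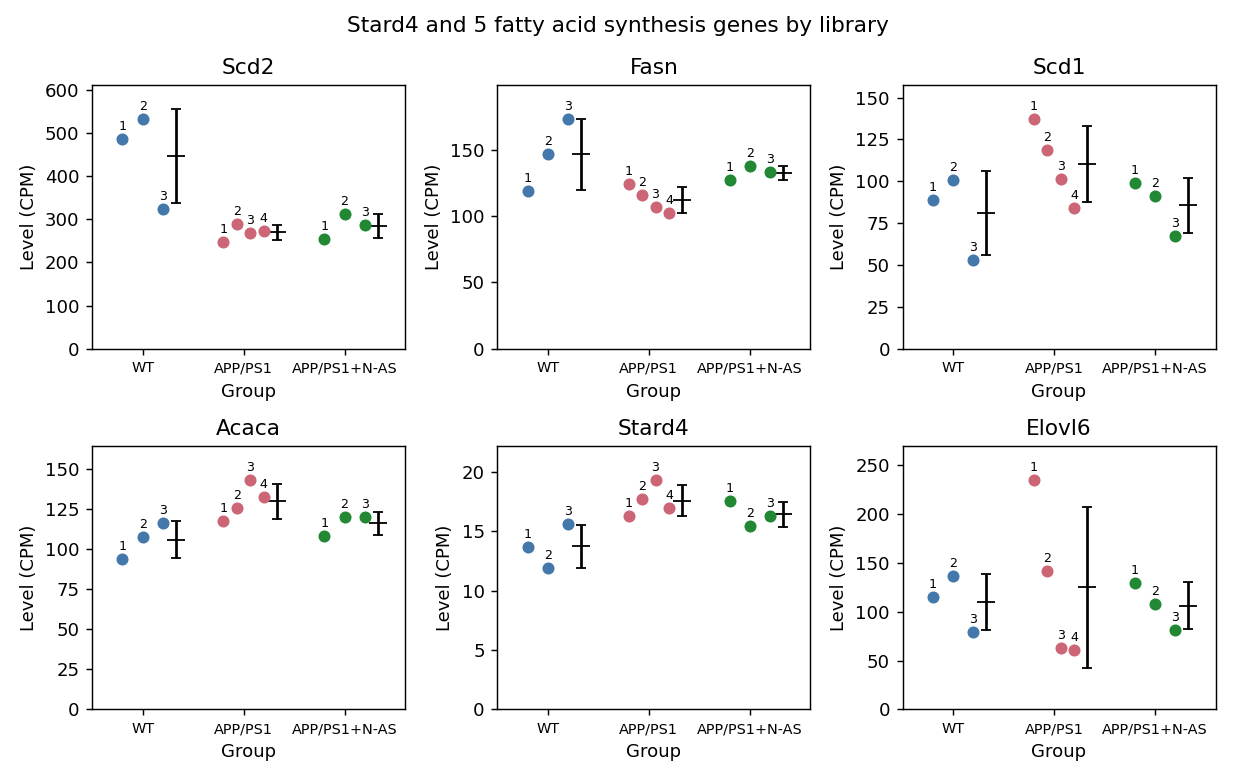
Level in CPM of Scd2, Fasn, Scd1, Acaca, Stard4 and Elovl6 in each library (points, with the replicate number above) and the mean ± SD of each group (black) for 3 WT, 4 APP/PS1 and 3 APP/PS1+N-AS libraries. All 3 WT libraries lie above the others for Scd2, and Elovl6 is spread widely within the APP/PS1 group, from 60.4 to 235 CPM.

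Scd1, the other desaturase (chr19:44394455-44407879, minus strand), did not follow Scd2. It was at 89.0, 101 and 52.8 CPM in WT, at 137, 119, 101 and 84.0 CPM in APP/PS1 and at 98.9, 91.1 and 67.4 CPM in APP/PS1+N-AS libraries. The groups overlapped, and the log2 fold change was 0.45 ± 0.24 in APP/PS1 against WT (edgeR, adjusted p = 0.393) and −0.36 ± 0.24 in APP/PS1+N-AS against APP/PS1 (unadjusted p = 0.166, adjusted p = 0.693). With the replicate number as a block the latter was −0.49 ± 0.15 (unadjusted p = 0.0135, adjusted p = 0.557). Thus 1 of 29 members in place of 0 had an unadjusted p under 0.05 in that comparison, beside 7.86% of all genes in that fit. With library numbers as a covariate Scd1 was higher in APP/PS1 than in WT by 0.57 on the log2 scale (adjusted p = 0.0332). Under 1% of the 100-base stretches of Scd1 occur in Scd2.

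Fasn, the fatty acid synthase (chr11:120805846-120824547, minus strand), was at 119, 147 and 173 CPM in WT. It was at 124, 116, 107 and 102 CPM in APP/PS1 and at 127, 137.5 and 133 CPM in APP/PS1+N-AS libraries. The injected libraries all lay above the APP/PS1 libraries, and WT 1 lay among the latter. The log2 fold change was −0.39 ± 0.15 in APP/PS1 against WT (edgeR, unadjusted p = 0.0227, adjusted p = 0.199) and 0.24 ± 0.15 in APP/PS1+N-AS against APP/PS1 (unadjusted p = 0.127, adjusted p = 0.662). Without WT 3 the first was −0.24 ± 0.14 (unadjusted p = 0.11, adjusted p = 0.347). Within library numbers 1 to 6 the first of these differences was −0.15 and within numbers 7 to 10 it was −0.73.

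Acaca, the acetyl-CoA carboxylase that makes malonyl-CoA (chr11:84129672-84401651, plus strand), was at 93.8, 107 and 116 CPM in WT. It was at 118, 125, 143 and 132.5 CPM in APP/PS1 and at 108, 119.9 and 119.8 CPM in APP/PS1+N-AS libraries. All APP/PS1 libraries lay above all WT libraries, with the nearest pair about 1 CPM apart, and the injected group overlapped with both. The log2 fold change was 0.29 ± 0.13 in APP/PS1 against WT (edgeR, unadjusted p = 0.0447, adjusted p = 0.276) and −0.16 ± 0.13 in APP/PS1+N-AS against APP/PS1 (adjusted p = 0.752). Acaca and Fasn, which catalyse successive steps, thus had fold changes of opposite sign in both comparisons, without either passing the adjusted threshold.

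Acly was at 82.9 to 138 CPM in WT, 93.0 to 129 CPM in APP/PS1 and 95.5 to 111 CPM in APP/PS1+N-AS libraries, and the groups overlapped. Elovl6, which lengthens palmitate to stearate, varied with the library number rather than with the group. In libraries numbered 1 to 6 it was at 108 to 235 CPM and in those numbered 7 to 10 at 60.4 to 81.0 CPM, without overlap, and each number range held libraries of all 3 groups. The labels do not say what the numbers stand for, and the standard error of its log2 fold change, 0.43 in APP/PS1 against WT, was the largest of the members. Acly, Fdft1 and Cyp51 were also split by these numbers without overlap, but were higher in libraries 7 to 10. Acly was at 82.9 to 101 CPM in libraries 1 to 6 and at 111 to 138 CPM in libraries 7 to 10. The ranges were 38.8 to 46.3 and 47.6 to 84.95 CPM for Fdft1, and 27.8 to 34.9 and 36.6 to 56.75 CPM for Cyp51.

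**Figure D4:**
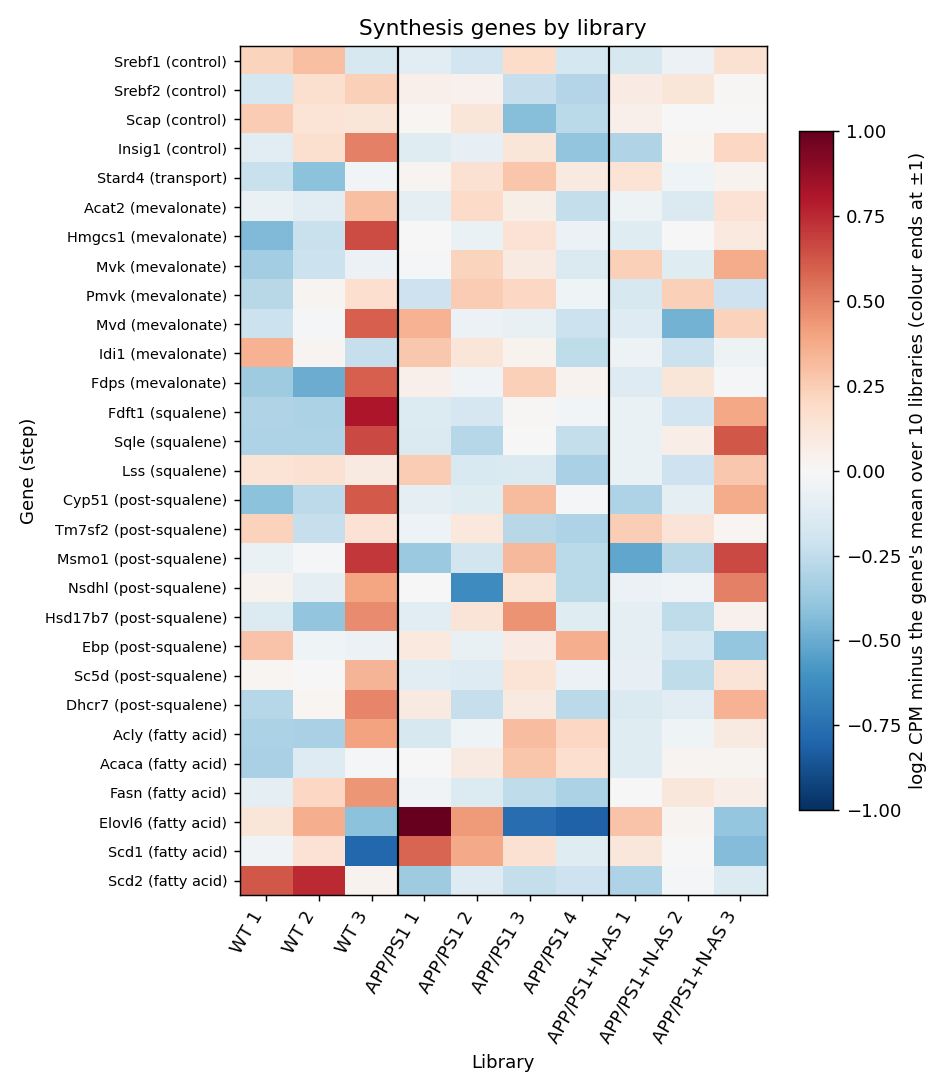
Log2 CPM of the 29 genes in each of the 10 libraries as the difference from the gene's mean over all libraries, with red above and blue below the mean and black lines between the groups. Most cholesterol enzymes are red in WT 3 and several also in APP/PS1+N-AS 3, Scd2 is red in WT 1 and WT 2, and Elovl6 is blue in libraries 3 and 4 of APP/PS1.

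Other genes of the pathway were counted from lists. Of 6 further sterol genes 5 were found, since Erg28 was not matched, and none had an unadjusted p under 0.05 in any comparison. Of 16 further fatty acid genes, 2 were higher and 4 lower in APP/PS1 than in WT at an unadjusted p under 0.05, 6 of 16 beside 17.2% of all genes, and none passed the adjusted threshold. The list had 2 higher and 1 lower in APP/PS1+N-AS against APP/PS1, 3 of 16 beside 8.83%. In APP/PS1+N-AS against WT 1 was lower, 1 of 16 beside 6.73%. Scd3, a further desaturase, was among those that were lower in APP/PS1 than in WT, at −0.43 ± 0.16 (edgeR, unadjusted p = 0.0227, adjusted p = 0.199).

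Of 15 genes of sterol sensing, storage and export, 4 were higher in APP/PS1 than in WT at an unadjusted p under 0.05, beside 8.3% of all genes, and none was lower. Of the same genes 2 were lower in APP/PS1+N-AS against APP/PS1 and 4 higher in APP/PS1+N-AS against WT, beside 4.05% and 3.64% of all genes. Npc2, which hands cholesterol out of lysosomes, was higher in APP/PS1 than in WT with a log2 fold change of 1.77 ± 0.25 (edgeR, adjusted p = 0.00384). The values for Abca1, a cholesterol exporter, and Soat1, which esterifies cholesterol for storage, were 0.62 ± 0.15 (adjusted p = 0.0514) and 0.74 ± 0.18 (adjusted p = 0.0546). The 12 microglial markers that were higher in the same comparison moved with these genes, and the part of that in their levels was not tested.

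Across the 10 libraries, the gene whose log2 CPM was most like the mean of the 29 members was Ttc9b, with a Pearson r of 0.952. Other genes with a high r were Ythdc2 at 0.934, Nrn1 at 0.921 and St6galnac5 at 0.918. These values describe 10 libraries that share groups and include WT 3, where the members were highest.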

How the data were processed

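RNA was depleted of ribosomal RNA, turned into stranded libraries and sequenced as paired reads, which the authors aligned with TopHat. The deposited values are raw counts of reads per gene, 1 table to a library. The submitters' processing notes name TopHat, edgeR and the build mm10. The annotation and the use of strand in counting are not given in the sources used here. Lines with the same symbol were summed. Groups came from the sample labels. Genes were filtered with filterByExpr, scaled by TMM and tested in one edgeR 4.0.16 quasi-likelihood model of 3 groups without covariates (R 4.3.3), with adjustment over 18727 genes and a threshold of 0.05. The common dispersion was 0.0752. Log2 CPM used a prior count of 2, and exon lengths and overlaps came from GENCODE M21. Libraries of 8805804 to 19432075 counts leave weakly expressed genes imprecise, and PCR reads without molecular identifiers are not independent molecules. Replicates differed by more than sampling noise (chi-square per degree of freedom 12.5 to 122 over 12 pairs).

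Alternatives were DESeq2 1.42.0, limma 3.58.1 (voom with quantile normalization), other scalings, no filter beyond 1 read, a prior count of 0.5, 2 groups at a time, a replicate block, a covariate for library numbers, and leaving out each library. After the data had been seen, 4 fits were added, 1 without libraries 7 to 10 and 3 with oligodendrocyte, microglial or Y-linked levels as covariates. All are reported, whatever they showed. Replicate numbers come from the labels, which do not say what they mark. Same-numbered libraries correlated at 0.142 to 0.309 after group means were removed for APP/PS1+N-AS and APP/PS1. They counted as paired because all 3 pairs were over 0.1, and the block was fitted only as an alternative. Differently numbered libraries had a mean of −0.0823, but APP/PS1+N-AS 3 and APP/PS1 4 were at 0.32. APP/PS1+N-AS 2 and APP/PS1 1 were at 0.173, so these values do not show a pairing by replicate number. For the other comparisons the lowest pair was −0.485 and −0.136, and these were not taken as paired. The tests were checked on simulated data.

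The members and lists were chosen with earlier results of these data known. Described in full were members with an unadjusted p under 0.05 in any comparison and Hmgcs1, Sqle, Insig1, Srebf1, Srebf2, Scd1, Scd2, Fasn and Acaca. Others named singly outside that rule were chosen after their values were seen. Of the marker lists, those for oligodendrocyte precursors, astrocytes, pericytes, border macrophages, neutrophils and T cells are summarised with the observations. Some results are not reported here.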

Additional observations from a re-analysis of the deposited data

How the results depend on the processing

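Of the fold changes of the 10 genes described in full, 627 of 690 values under alternatives kept their direction and side of the adjusted threshold, 55 changed sign and 8 passed the threshold that they had not passed. The cause of each change named here was not tested. Depth limits the least expressed members, with as few as 38 reads in a library, and small changes in every member. The counts to compare with are 649, 0 and 35 genes called in APP/PS1 against WT, APP/PS1+N-AS against APP/PS1 and APP/PS1+N-AS against WT, and 4, 0 and 1 members at an unadjusted p under 0.05.

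DESeq2 called 1 member in APP/PS1 against WT, and 1296, 73 and 180 genes in the 3 comparisons. Limma with quantile normalization called 20 genes in APP/PS1+N-AS against WT and gave Hmgcs1 0.046 on the log2 scale in APP/PS1 against WT. Without a filter Hmgcs1 was 0.0019 in APP/PS1+N-AS against APP/PS1 and Srebf2 0.011 in APP/PS1+N-AS against WT. With 2 groups at a time, 2 members had an unadjusted p under 0.05 in APP/PS1 against WT and 2 in APP/PS1+N-AS against APP/PS1. The shares of all genes were 14.5% and 13.7%. In that setting 410 genes were called in APP/PS1 against WT and 2 in APP/PS1+N-AS against WT.

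With the replicate block, 326 genes were called in APP/PS1 against WT and 5 in APP/PS1+N-AS against WT. In APP/PS1+N-AS against APP/PS1 1 member, Scd1, had an unadjusted p under 0.05, beside 7.86% of all genes. Under the block Hmgcs1 was 0.0095 in APP/PS1 against WT and Insig1 −0.00058 in APP/PS1+N-AS against APP/PS1. The block changed no call of a member at the adjusted threshold. In APP/PS1 against WT, Scd1 (0.59) then met the unadjusted threshold and Fasn (−0.33) no longer did. Same-numbered libraries of APP/PS1 and WT correlated at −0.485 to 0.441, and those of APP/PS1+N-AS and WT at −0.136 to 0.348.

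With library numbers as a covariate, 2 members (Scd1 higher, Scd2 lower) and 1055 genes were called in APP/PS1 against WT and 64 genes in APP/PS1+N-AS against WT. Then 7 of 29 members had an unadjusted p under 0.05 in APP/PS1 against WT, beside 21.6% of all genes. In APP/PS1+N-AS against APP/PS1 2 members did, beside 11.5%, and Hmgcs1 was 0.046. Within library numbers 7 to 10 the mean log2 CPM of the members differed by −0.30 in APP/PS1 against WT and by 0.17 in APP/PS1+N-AS against APP/PS1.

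The remaining fits were chosen after seeing the data. With libraries 7 to 10 left out, 1 member, Scd2, was called in APP/PS1 against WT and in APP/PS1+N-AS against WT, and 11 genes in APP/PS1+N-AS against APP/PS1 and 437 in APP/PS1+N-AS against WT. Members at an unadjusted p under 0.05 were 2 in APP/PS1+N-AS against APP/PS1 and 5 in APP/PS1+N-AS against WT, beside 9.04% and 15.3% of all genes. In APP/PS1 against WT Hmgcs1 was then 0.26, Sqle 0.066 and Srebf2 0.0058, in APP/PS1+N-AS against APP/PS1 Insig1 was −0.038, and in APP/PS1+N-AS against WT Hmgcs1 was 0.23, Srebf2 0.056 and Scd1 −0.043.

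With the oligodendrocyte markers as a covariate, 3 members (Scd1 higher, Fdft1 and Sqle lower) and 1624 genes were called in APP/PS1 against WT, 1 gene in APP/PS1+N-AS against APP/PS1 and 255 in APP/PS1+N-AS against WT. Members at an unadjusted p under 0.05 were 13, 4 and 7 of 29, beside 26.2%, 12.6% and 18.8% of all genes in that fit. Scd2 was −0.060 and Hmgcs1 0.21 in APP/PS1+N-AS against APP/PS1, and in APP/PS1+N-AS against WT Sqle was −0.17 and Srebf2 0.0065.

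With the microglial markers as a covariate, of which the groups explained 93%, 0 genes were called in APP/PS1 against WT and 0 in APP/PS1+N-AS against WT, and members at an unadjusted p under 0.05 were 2, 1 and 2, beside 4.67%, 4.34% and 4.36% of all genes. In APP/PS1 against WT Stard4 was −0.19, Acaca −0.26, Scd2 0.17 and Srebf1 0.48. In APP/PS1+N-AS against APP/PS1 Stard4 was 0.11, Acaca 0.051, Scd2 −0.25, Hmgcs1 0.60 and Srebf1 −0.21. In APP/PS1+N-AS against WT Stard4 was −0.080, Acaca −0.21, Sqle −0.37 and Srebf1 0.27.

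With the summed Y-linked level as a covariate, of which the groups explained 71.2%, 3 genes were called in APP/PS1 against WT and 1 in APP/PS1+N-AS against WT. Members at an unadjusted p under 0.05 were 0 and 3 in these comparisons, beside 4.77% and 3.15% of all genes. In APP/PS1 against WT Hmgcs1 was 0.16, Sqle 0.38 and Insig1 0.094, in APP/PS1+N-AS against APP/PS1 Insig1 was −0.077 and Srebf1 −0.0071, and in APP/PS1+N-AS against WT Hmgcs1 was 0.055, Insig1 0.017, Srebf2 0.044 and Scd1 −0.13.

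Leaving out each library in turn gave 0 to 1 members called in APP/PS1 against WT (1 without WT 3) and 299 to 923 genes called. At an unadjusted p under 0.05 it gave 1 to 7 members there. The count was 1 without APP/PS1 3 and 7 without WT 3, beside 13.5% and 21.5% of all genes. In APP/PS1+N-AS against APP/PS1 it gave 0 to 1 members at that threshold, beside 4.07% to 12% of all genes, and 0 to 1 genes called. In APP/PS1+N-AS against WT it gave 1 to 7 members (7 without WT 3, beside 12.1%) and 1 to 116 genes called. In APP/PS1 against WT Hmgcs1 ranged from −0.27 to 0.34 and Sqle from −0.43 to 0.16. Hmgcs1 ranged from −0.057 to 0.046, Insig1 from −0.017 to 0.23 and Srebf1 from −0.029 to 0.15 in APP/PS1+N-AS against APP/PS1. In APP/PS1+N-AS against WT Hmgcs1 ranged from −0.28 to 0.33, Sqle from −0.068 to 0.56, Srebf2 from −0.13 to 0.071 and Scd1 from −0.14 to 0.29.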

Other observations

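Markers of further cell types were measured beside the 29 genes. Of 8 astrocyte markers 2 were higher in APP/PS1 than in WT at an adjusted p under 0.05 (edgeR), and Gfap, the intermediate filament of reactive astrocytes, rose with a log2 fold change of 5.65 ± 0.55 (adjusted p = 0.000545). The median log2 fold change over the 8 markers was −0.05. The summed astrocyte markers were at 2238 to 2665 CPM in WT, 2474 to 3953 CPM in APP/PS1 and 2287 to 3319 CPM in APP/PS1+N-AS libraries. None of 6 markers of oligodendrocyte precursors, 4 of pericytes, 5 of border macrophages, 8 of neurons or 6 of endothelial cells passed the adjusted threshold in that comparison, with 3 precursor markers lower at an unadjusted p under 0.05 and none of the other lists. Of 6 neutrophil and 6 T cell markers 4 and 5 were tested and none passed. The neutrophil markers summed to 93.2 CPM in APP/PS1 3 and to 2.95 to 17.0 CPM in the other libraries.

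WT 3 and APP/PS1+N-AS 3, both among the libraries numbered 7 to 10, held the highest levels of Sqle, Fdft1, Cyp51 and Msmo1.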
